A study of Mus musculus with 6 samples.

Results

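Trip12 encodes a ubiquitin ligase of the HECT family, and its messenger RNA was followed here together with those of 9 proteins reported to bind TRIP12 or to be ubiquitinated by it. The 10 genes were taken as a fixed list (Trip12, Rnf168, Parp1, Usp7, Nae1, Smarce1, Fbxw7, Bap1, Asxl1 and Sox6) and were found by matching Ensembl identifiers to mouse symbols. All 10 were among the 55414 gene identifiers counted, and all 10 were among the 13115 genes with enough counts to be tested. By the cell type label, RNA came from acinar cells, which make and secrete digestive enzymes in the pancreas, of adult mice that received no treatment. The growth protocol in the labels describes tumour cell lines instead, and the cell type label was followed here. The 3 control preparations had the genotype Pdx1Cre;Trip12+/+ and the 3 knockout preparations Pdx1Cre;Trip12fl/fl. Both groups thus carry the Cre recombinase under the Pdx1 promoter, which is active in the developing pancreatic epithelium, so that cells outside that epithelium (leukocytes, stroma, vessels) are not expected to lose the floxed exons. Nothing in the labels says which exons are floxed or whether a preparation was 1 animal or a pool.

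HECT ligases take activated ubiquitin onto a cysteine of their own before passing it to a target, and proteins marked in this way are commonly sent to the proteasome. TRIP12 is known from the ubiquitin fusion degradation pathway, from the turnover of the break-signalling ligase RNF168 and of PARP1, and from the turnover of chromatin and ubiquitin-pathway proteins. In the exocrine pancreas it is known as a ligase for PTF1A, a transcription factor of acinar cells. These are effects on protein, whereas the values here are transcript levels and carry no information on protein amount.

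Levels are given as CPM, the counts of a gene scaled to a common library size after correction for composition with TMM factors, and values are listed throughout in the order of replicates 1 to 3. Gene counts per library ran from 31019500 to 34041901. Reads mapped to several places made up 21.6% to 24.1% of all reads in knockout and 25.98% to 28.4% in control. Acinar markers were strongly expressed, with all 12 counted in every library and a summed level of 429897 to 584219 CPM in control and 366961 to 377181 CPM in knockout. Other cell types were present at low levels. The 10 leukocyte markers summed to 23.7 to 191 CPM in control and 25.7 to 125 CPM in knockout, and the 11 stromal and endothelial markers to 30.9 to 145 CPM and 41.6 to 162 CPM. Islet markers summed to 357 to 465 CPM and 248 to 914 CPM, ductal markers to 188 to 231 CPM and 175 to 266 CPM, and adipocyte markers to 3.41 to 8.85 CPM and 4.57 to 17.2 CPM. Adipoq, Plin1, Lep and Cidec were at 0 in at least 1 library. Control replicates 2 and 3 expressed Xist and the other 4 libraries expressed Y-linked genes, so that control replicate 1 was the only male control and all 3 knockouts were male. In such bulk samples, fewer cells of a type and less RNA per cell give the same reading.

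Promoter sequence is shown for the 3 genes whose knockout libraries all lay below all control libraries, namely Trip12, Rnf168 and Nae1. RefSeq held a promoter for 9 of the 10 genes (build GRCm38.p6). Each line gives the 250 bases before the annotated start, 5′ to 3′ on the gene's strand, at chr1:84839305-84839554 (minus strand) for Trip12, chr16:32277211-32277460 (plus strand) for Rnf168 and chr8:104534638-104534887 (minus strand) for Nae1, and capitals mark matches to the 4 motifs described after the sequences.
Trip12: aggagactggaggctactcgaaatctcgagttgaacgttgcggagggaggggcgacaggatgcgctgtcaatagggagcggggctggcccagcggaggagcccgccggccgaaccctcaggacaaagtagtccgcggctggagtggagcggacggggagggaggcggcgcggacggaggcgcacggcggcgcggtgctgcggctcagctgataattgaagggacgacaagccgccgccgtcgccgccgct
Rnf168: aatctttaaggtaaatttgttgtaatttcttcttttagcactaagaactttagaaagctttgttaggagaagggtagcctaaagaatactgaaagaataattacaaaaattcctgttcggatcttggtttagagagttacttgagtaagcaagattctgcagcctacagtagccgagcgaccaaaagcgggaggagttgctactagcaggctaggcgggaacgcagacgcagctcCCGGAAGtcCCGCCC
Nae1: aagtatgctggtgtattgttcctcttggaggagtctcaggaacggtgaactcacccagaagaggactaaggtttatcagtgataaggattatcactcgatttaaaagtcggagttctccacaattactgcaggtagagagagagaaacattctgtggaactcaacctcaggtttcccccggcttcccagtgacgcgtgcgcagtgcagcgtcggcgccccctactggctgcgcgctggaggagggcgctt

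The Trip12 promoter was the richest of these in G and C, at 69.2% with 32 CpG dinucleotides, against 43.6% and 9 for Rnf168, 52.8% and 13 for Nae1, and medians of 52.4% and 6 over 32817 promoters of the same length. Both strands were searched for CCGGAAG (ETS family), GGGCGG (SP family), CCAAT and TATAAA. Rnf168 held 1 match to the ETS motif, present in 6.90% of all promoters, and 1 match to the SP motif, present in 32.7%. The Trip12 and Nae1 windows held none of the 4 motifs, and CCAAT and TATAAA occur in 33.8% and 12.4% of all promoters. The 3 sequences thus share none of these motifs.

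Trip12 (ENSMUSG00000026219) was the 1 gene of the 10 called after adjustment over all tested genes. The controls stood at 29.0, 22.3 and 26.4 CPM, against 14.4, 14.7 and 13.0 CPM for the knockouts. Every knockout library lay below the lowest control, and the knockout libraries were close to each other. The knockout mean was 54.1% of the control mean, which is a log2 fold change of -0.89 (SE 0.14), with a 95% interval of -1.20 to -0.57 (edgeR adjusted p = 0.0256). The exact two-sided permutation test gave p = 0.1, the smallest that 3 against 3 allows. Within the numbered pairs the knockout was lower by log2 differences of -1.01, -0.60 and -1.03 in pairs 1 to 3. The knockouts thus still held Trip12 reads, and counts over the whole gene do not show whether the remaining transcripts lack the floxed exons. No exon of Trip12 overlapped an exon of another gene in the GRCm38 annotation. Its span overlaps those of Fbxo36 on the opposite strand and of Gm38374 and Gm37738 on the same strand.

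The call on Trip12 depended on scaling and on single libraries, while its direction held in all 20 alternative fits. Scaling by library totals instead of TMM moved the median log2 fold change of 10934 genes tested in every fit by 0.41, and the Trip12 value was then -0.49 (edgeR adjusted p = 0.125). Leaving out control replicate 2 or 3 or any 1 knockout library ended the call, with values of -0.98 to -0.84 and edgeR adjusted p of 0.0676 to 0.140. With sex as a covariate, where the contrast rests on 1 male control, the value was -1.05 (edgeR adjusted p = 0.0941).

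A ratio within a library does not need scaling between libraries, and Trip12 was therefore also set against the summed counts of 26 HECT ligase genes. Of these counts, 5.14%, 4.62% and 4.37% fell on Trip12 in the controls, as against 3.14%, 2.94% and 2.37% for the knockouts. All 3 knockout shares lay below all 3 control shares, and no Clopper-Pearson 95% interval of a knockout library (highest upper bound 3.41%) reached that of a control library (lowest lower bound 4.06%). These intervals cover counting error only. The mean share was 4.71% ± 0.396 (SD, n = 3) among controls and 2.82% ± 0.399 among knockouts, which differ by -1.89 percentage points (exact two-sided permutation test, p = 0.1, Benjamini-Hochberg adjusted 0.333 over 10 such shares). The difference lay between -2.06 and -1.67 points when any 1 library was left out, and was -3.01 points without Nedd4, the most abundant gene of the list. Control replicate 1, with the highest Trip12 level and share, also had the highest summed leukocyte markers of the 6 libraries (191 CPM), and the part of other cell types in the Trip12 values was not tested.

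**Figure D1:**
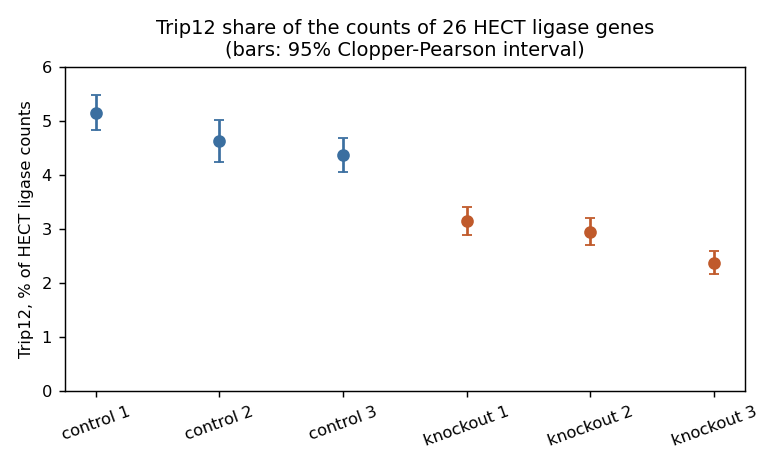
Trip12 counts as a percentage of the counts of 26 HECT ligase genes (vertical axis) in each of the 6 libraries (horizontal axis), controls in blue and knockouts in orange, with 95% Clopper-Pearson intervals. The control points lie between 4.37% and 5.14% and the knockout points between 2.37% and 3.14%.

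Among the 9 reported partners and substrates none was called, either with edgeR's quasi-likelihood test or with DESeq2 or limma-voom, and 1 of the 9 (Rnf168) had an unadjusted edgeR p under 0.05. Over all genes tested, edgeR called 0.945% (0.465% higher and 0.480% lower) and 16.7% had an unadjusted p under 0.05, so a count of 1 called gene among 10 rests on the targeted gene itself. The median log2 fold change of the 9 was -0.0010, against 0.02 over all tested genes, and the median size regardless of sign was 0.11 against 0.26. In control level the 9 stood above 62.1% (Sox6) to 90.8% (Usp7) of all tested genes. The comparison was not matched for level. Groups did not overlap for Trip12 and for 2 of the 9 (22.2%), Rnf168 and Nae1, all of them lower in knockout. Of all tested genes, 22.9% had groups that did not overlap (10.9% lower, 12.0% higher). With the replicate number as a block, 5.99% of all tested genes were called (3.40% higher and 2.58% lower) and Trip12 was again the single member called (log2 fold change -0.88, edgeR adjusted p = 0.00474).

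**Figure D2:**
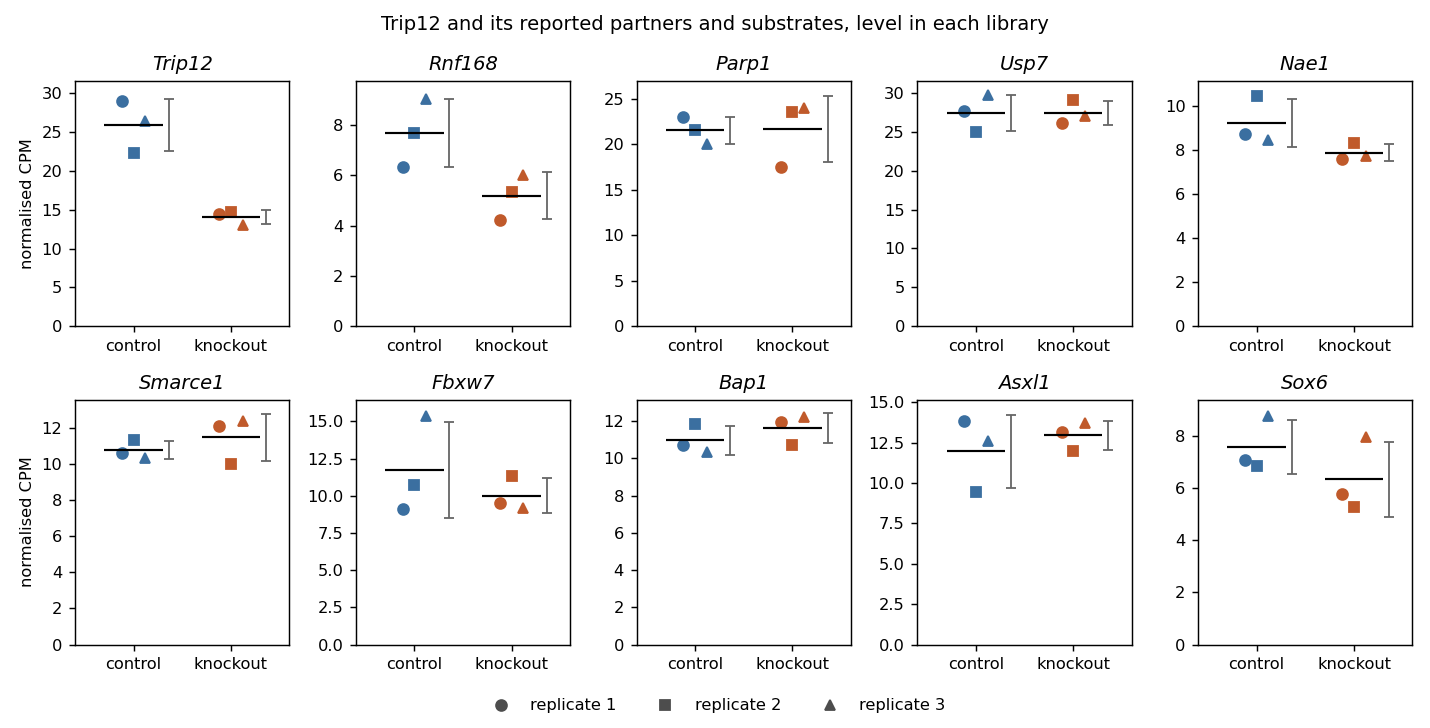
Normalised CPM (vertical axes, starting at 0) of the 10 genes in control (blue) and knockout (orange), with 1 point per library, marker shape for the replicate number, a line at the mean and a bar of 1 SD to each side. Trip12, Rnf168 and Nae1 are the genes whose 2 groups do not overlap, and for Parp1 and Usp7 the knockout mean is 100.5% and 99.9% of the control mean.

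RNF168 is a ligase that places ubiquitin on histone H2A at DNA breaks, and TRIP12 is known to limit its amount. Rnf168 (ENSMUSG00000014074) stood at 6.33, 7.68 and 9.05 CPM in the controls, against 4.21, 5.34 and 6.03 CPM in the knockouts. The highest knockout value lay just under the lowest control, and in each numbered pair the knockout was lower, with log2 differences of -0.59, -0.53 and -0.58. The log2 fold change was -0.56 (SE 0.19, 95% interval -1.01 to -0.12, edgeR unadjusted p = 0.0177), and it missed the threshold after adjustment over all genes at 0.204, and at 0.0556 with the replicate block. The value was negative in all 20 alternative fits, from -0.71 to -0.14, was called in none of them, and was -0.29 with the sex covariate and -0.14 with library totals. As a share of the counts of 20 break-signalling genes, Rnf168 made up 5.82% ± 0.881 (SD, n = 3) in control and 4.11% ± 0.496 in knockout, without overlap (exact two-sided permutation test, p = 0.1, Benjamini-Hochberg adjusted 0.333).

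PARP1 attaches ADP-ribose chains to proteins at DNA breaks, and its turnover by TRIP12 is known to set how much of it stays on DNA under PARP inhibitors. Parp1 (ENSMUSG00000026496) stood at 23.0, 21.6 and 20.1 CPM in the controls, against 17.4, 23.5 and 24.0 CPM in the knockouts. Knockout replicate 1 was the lowest of the 6 libraries and knockout replicate 3 the highest, so the groups overlapped fully. The log2 fold change was 0.0063 with a 95% interval of -0.34 to 0.35, which leaves room for a fold change between 0.789 and 1.28 (edgeR adjusted p = 0.989).

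Usp7 (ENSMUSG00000022710) encodes a deubiquitinase known for stabilising MDM2 and p53. It stood at 27.7, 25.02 and 29.7 CPM in the controls, against 26.2, 29.1 and 27.1 CPM in the knockouts. Both the lowest and the highest library were controls, and the knockout mean was 99.9% of the control mean. The log2 fold change was -0.0010 with a 95% interval of -0.29 to 0.29, or 0.819 to 1.22 as a fold change (edgeR adjusted p = 0.998). Within the 12 genes of its partner list Usp7 took 12.6% ± 0.0768 (SD, n = 3) of counts in knockout and 11.2% ± 1.22 in control. These shares did not overlap (exact two-sided permutation test, p = 0.1, Benjamini-Hochberg adjusted 0.333). The gap was narrow, with 12.49% in control replicate 3 and 12.55% in knockout replicate 3. The difference in mean share of 1.46 percentage points was 0.901 without control replicate 2, 0.771 with forward-strand counts and 2.74 without Maged1, the most abundant other gene of the list. A share also depends on the rest of its list. Of these 12 genes, Usp7 included, 8 had negative and 4 positive log2 fold changes, and the middle value was -0.21. The higher share thus does not show a higher level of Usp7.

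Nae1 and Fbxw7 belong to the ligase machinery itself. NAE1 is the regulatory subunit of the enzyme that activates NEDD8, the ubiquitin-like protein that switches on cullin ligases. Nae1 (ENSMUSG00000031878) stood at 8.72, 10.5 and 8.47 CPM in the controls, against 7.59, 8.34 and 7.75 CPM in the knockouts. The groups did not overlap, but by a margin smaller than the spread within either group, and the log2 fold change of -0.22 had a 95% interval of -0.54 to 0.09 (edgeR adjusted p = 0.475). Uba3, the catalytic partner of NAE1, had a log2 fold change of 0.03 (SE 0.13).

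FBXW7 is the substrate receptor of an SCF ligase for cyclin E, MYC, JUN and NOTCH proteins. Fbxw7 (ENSMUSG00000028086) stood at 9.10, 10.7 and 15.3 CPM in the controls, against 9.52, 11.3 and 9.17 CPM in the knockouts. Control replicate 3 stood above the other 5 libraries and gave Fbxw7 the widest control spread of the 10 genes, with a coefficient of variation of 27.6%. The log2 fold change was -0.23 with a 95% interval of -0.68 to 0.23 (edgeR adjusted p = 0.636), and without control replicate 3 it was 0.015.

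Smarce1, Bap1 and Asxl1 encode chromatin proteins, and all 3 had slightly higher means in knockout with overlapping groups. SMARCE1 (BAF57) is a DNA-binding subunit of the SWI/SNF remodelling complex. Smarce1 (ENSMUSG00000037935) stood at 10.6, 11.3 and 10.3 CPM in the controls, against 12.1, 9.99 and 12.4 CPM in the knockouts, a log2 fold change of 0.10 with a 95% interval of -0.21 to 0.40 (edgeR adjusted p = 0.792). Knockout replicate 2 was the lowest of the 6, below every control.

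BAP1 is the catalytic subunit of the Polycomb deubiquitinase, which removes ubiquitin from histone H2A, and ASXL1 is the partner that activates it. Bap1 (ENSMUSG00000021901) stood at 10.7, 11.8 and 10.3 CPM in the controls, against 12.0, 10.7 and 12.2 CPM in the knockouts, and its log2 fold change was 0.08 (95% interval -0.20 to 0.37, edgeR adjusted p = 0.810). Asxl1 (ENSMUSG00000042548) stood at 13.8, 9.45 and 12.6 CPM in the controls, against 13.1, 12.0 and 13.7 CPM in the knockouts. Control replicate 2 was the low point for Asxl1, and without it the log2 fold change went from 0.11 (95% interval -0.25 to 0.48) to -0.03. An antisense transcript, 2500004C02Rik, shares 197 exonic bases with Asxl1 in the GRCm38 annotation, which is 2.65% of its exonic length, and strands are not separated in the counts used.

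SOX6 is a transcription factor of the SOXD group, with known roles in cartilage, muscle and blood. Sox6 (ENSMUSG00000051910) stood at 7.09, 6.86 and 8.76 CPM in the controls, against 5.76, 5.28 and 7.97 CPM in the knockouts. Replicate 3 was the highest library in both groups, and the knockout was lower in all 3 pairs, by log2 differences of -0.30, -0.38 and -0.14. The log2 fold change was -0.26 with a 95% interval of -0.69 to 0.18 (edgeR adjusted p = 0.562), and the replicate block gave -0.27 with an interval of -0.60 to 0.07.

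**Figure D3:**
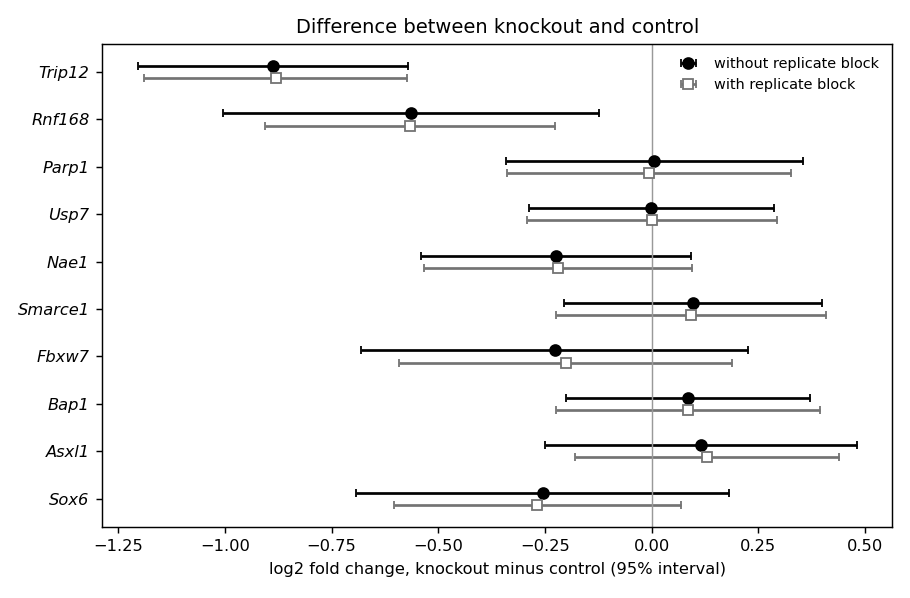
Log2 fold change, knockout minus control (horizontal axis), of each of the 10 genes with its 95% interval, from edgeR without the replicate block (black) and with it (grey, open). Trip12 and Rnf168 are the genes whose intervals exclude 0 in both fits, and the other 8 intervals include it.

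Levels between genes were compared per kilobase of exonic sequence (RPKM, from the normalised CPM and the exonic length in the GRCm38 annotation). In control Parp1 stood highest at 4.07 ± 0.277 RPKM (SD, n = 3), followed by Usp7 at 3.54 ± 0.305, and the ranges of these 2 genes overlapped. Bap1 followed at 2.34 ± 0.166 RPKM, apart from its neighbours on both sides. Rnf168, Fbxw7, Smarce1, Asxl1 and Trip12 lay between 1.72 and 1.56 RPKM, each overlapping the next in the order. Nae1 at 1.12 ± 0.133 RPKM and Sox6 at 0.510 ± 0.0700 RPKM were lowest, each apart from the gene before it. In knockout Trip12 stood ninth of the 10, at 0.845 ± 0.0553 RPKM. The order depends on the length used, because the annotated exons exceed the longest coding transcript by amounts that differ between genes, for example 16601 against 9632 bases for Trip12, 8201 against 1808 for Nae1, 6650 against 2919 for Smarce1 and 4462 against 4460 for Rnf168. With the latter as the length, a choice made after seeing the data, Usp7 came first at 5.79 RPKM and Parp1 second at 5.56, while Nae1 moved from rank 9 to 3, Rnf168 from rank 4 to 8 and Trip12 from rank 8 to 6.

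The genes whose pattern over the 6 libraries was nearest to that of Trip12 were Skap2, Trim65, Card6, Slc16a1 and Trim24. The measure was the root-mean-square difference of log2 CPM, each gene centred on its mean, among 12111 protein-coding genes. It was 0.076 for Skap2, which encodes an adaptor protein, and 0.107 to 0.119 for the other 4 genes, against a median of 0.539 over all genes ranked. The measure includes the difference between the groups, so genes near Trip12 are lower in knockout by the way they were picked. Their fold changes are therefore no separate result. Skap2 stood at 8.10, 7.07 and 7.16 CPM in the controls, against 3.94, 3.997 and 3.57 CPM in the knockouts, and was called (log2 fold change -0.96, edgeR adjusted p = 0.0251). Trim24, itself a ubiquitin ligase of the TRIM family, stood at 25.4, 20.1 and 26.5 CPM in the controls, against 14.7, 16.0 and 13.9 CPM in the knockouts (log2 fold change -0.69, edgeR adjusted p = 0.0665). Of the 9 partners and substrates, Rnf168 came nearest to Trip12, at 0.329 and rank 847, and Smarce1 farthest, at 0.523 and rank 5676.

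The pathways around the 10 genes were described with 11 lists holding 161 genes beside the members themselves, of which 151 were tested. None of the 151 was called by edgeR or by limma-voom, which called 0.945% and 0.854% of all tested genes. DESeq2 called 5 of the 151, and 4.53% of all tested genes (594 of 13115). An unadjusted edgeR p under 0.05 was found for 15 (9.93%), against 16.7% of all tested genes. These shares were not matched for expression level. The replicate block called 8 of the 151, 4 higher and 4 lower, a share of 5.30% against 5.99% of all tested genes. The median log2 fold change of the 151 was -0.01. With library totals, which called 11.6% of all tested genes, 8 of the 11 lists held 1 to 3 called genes. With the sex covariate, where the contrast rests on 1 male control, no list held any. In the replicate block, pairs 2 and 3 each set a female control against a male knockout.

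Trip12 was the only HECT ligase called among the 24 tested, without the block or with it, and 4 of the 24, Trip12 included, had an unadjusted p under 0.05. The highest value was that of Herc6, an interferon-inducible ligase, at 0.548 CPM in control and 1.17 CPM in knockout (log2 fold change 1.09, SE 0.44, edgeR adjusted p = 0.261). Without Trip12 no HECT ligase had a log2 fold change below -0.36, the value of Nedd4. Of the 16 genes of ubiquitin fusion degradation and the steps before and after it (E1 and E2 enzymes, the segregase Vcp with Ufd1 and Nploc4), none was called with edgeR, DESeq2 or limma-voom, and none had an unadjusted p under 0.05. The highest log2 fold change of the list was 0.40 (SE 0.22), for the E2 enzyme gene Ube2d1.

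In the list around Rnf168, 1 of 19 tested genes was called with the block and none without it, and 4 had an unadjusted p under 0.05 (none was called by DESeq2 or limma-voom). Trp53bp1, which binds the histone mark made by RNF168, stood at 5.76, 4.31 and 4.18 CPM in the controls, against 7.48, 6.88 and 8.50 CPM in the knockouts, without overlap (log2 fold change 0.68, edgeR adjusted p = 0.1199, and 0.0453 with the block). Brca1 had the lowest value of the list, a log2 fold change of -0.77 (SE 0.57) at 0.835 CPM in control. In the list around Parp1 (ADP-ribosylation and repair of nicks, 16 tested), none was called in edgeR with or without the block, in DESeq2 or in limma-voom, and none had an unadjusted p under 0.05. Values ran from -0.60 for Parp3 to 0.37 for Aptx.

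Among the 12 genes around Usp7, none was called without the block, 3 had an unadjusted p under 0.05, and the block and DESeq2 each called 2 (limma-voom none). Gmps, the GMP synthase that binds USP7, stood at 14.2, 17.6 and 18.2 CPM in the controls, against 9.68, 10.8 and 11.2 CPM in the knockouts, a log2 fold change of -0.66 (edgeR adjusted p = 0.0698, and 0.0161 with the block). Trim27, a ligase found with USP7, stood at 18.9, 21.3 and 25.3 CPM in the controls, against 14.8, 14.6 and 14.5 CPM in the knockouts, a log2 fold change of -0.57 (edgeR adjusted p = 0.0955, and 0.0382 with the block). Neither gene's groups overlapped. Trp53 had the highest value of the list, 0.25 (SE 0.30).

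Of 21 genes of NEDD8 conjugation, 15 had lower and 6 higher levels in knockout (6249 lower and 6866 higher over all tested genes), and the median of their log2 fold changes was -0.16. None was called without the block and 3 had an unadjusted p under 0.05. DESeq2 called 1 and limma-voom none. With the block Cul3, the cullin that pairs with BTB-domain receptors, was called. It stood at 31.9, 33.97 and 38.8 CPM in the controls, against 23.6, 23.5 and 25.99 CPM in the knockouts (log2 fold change -0.52, edgeR adjusted p = 0.110, and 0.0406 with the block). Dcun1d4 had the lowest value (-0.52) and Senp8, the protease that matures NEDD8, the highest (0.55), and neither was called in either fit.

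Chromatin partners gave a single call with the block. In the SWI/SNF list (22 tested, 1 with an unadjusted p under 0.05, none called without the block, 1 called by DESeq2 and none by limma-voom) Brd9, a subunit of the non-canonical complex, stood at 7.78, 4.15 and 5.16 CPM in the controls, against 13.4, 13.3 and 10.1 CPM in the knockouts. Its groups did not overlap (log2 fold change 1.10, SE 0.24, edgeR adjusted p = 0.0719, and 0.00577 with the block). Smarcd3 had the lowest value of that list, -0.47 (SE 0.32). Of the 10 tested genes of the Polycomb deubiquitinase list none was called by edgeR with or without the block, DESeq2 or limma-voom, none had an unadjusted p under 0.05, and values ran from -0.38 for Kdm1b to 0.43 for Ogt.

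Around Fbxw7, 13 of 14 listed genes were tested, none was called without the block and 1 had an unadjusted p under 0.05. The block, which called 5.99% of all tested genes, called 2 genes whose proteins FBXW7 is known to recognise. DESeq2 called 1 gene of the list and limma-voom none. Notch1 stood at 10.4, 4.89 and 12.8 CPM in the controls, against 23.6, 20.98 and 31.9 CPM in the knockouts, without overlap (log2 fold change 1.45, SE 0.35, edgeR adjusted p = 0.128, and 0.00116 with the block). Myc stood at 19.7, 17.8 and 40.6 CPM in the controls, against 25.6, 25.6 and 64.6 CPM in the knockouts. The groups overlapped for Myc, since replicate 3 was high in both, and the knockout was higher within each pair by 0.37, 0.53 and 0.67 on the log2 scale (edgeR adjusted p = 0.665, and 0.0440 with the block). Klf5 had the lowest value of the list, -0.45 (SE 0.38). In the SOX family 9 of 13 genes were tested and none was called by edgeR with or without the block, DESeq2 or limma-voom, with 1 at an unadjusted p under 0.05. Sox5, the closest relative of Sox6 on the list, had the highest value (1.42, SE 0.58) at 0.363 CPM in control, and Sox6 itself the lowest.

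Ptf1a, whose protein is a known TRIP12 target, stood at 7.43, 14.0 and 10.8 CPM in the controls, against 5.44, 9.48 and 7.05 CPM in the knockouts. The groups overlapped, the knockout was lower in each pair, and the log2 fold change was -0.55 (SE 0.28, edgeR adjusted p = 0.374, and 0.0460 with the block). Cdkn2a, which encodes the other listed target, ARF, was too low to be tested.

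**Figure D4:**
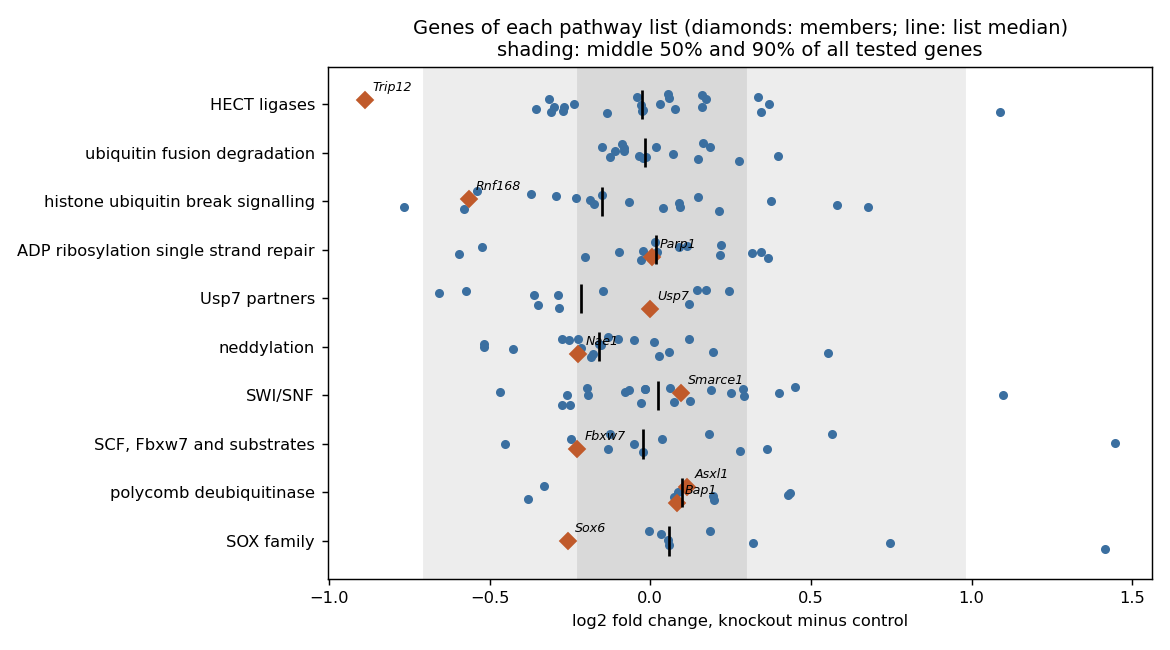
Log2 fold change, knockout minus control (horizontal axis), of each tested gene in 10 pathway lists (vertical axis), with the members as orange diamonds, other genes as blue points and a line at each list's median. Grey bands hold the middle 50% and 90% of all tested genes, from -0.23 to 0.30 and from -0.70 to 0.98. Trip12, at -0.89, is the only member outside the wider band. Other genes lie outside it too, among them Notch1 (1.45), Sox5 (1.42), Brd9 (1.10), Herc6 (1.09) and Brca1 (-0.77).

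**Figure D5:**
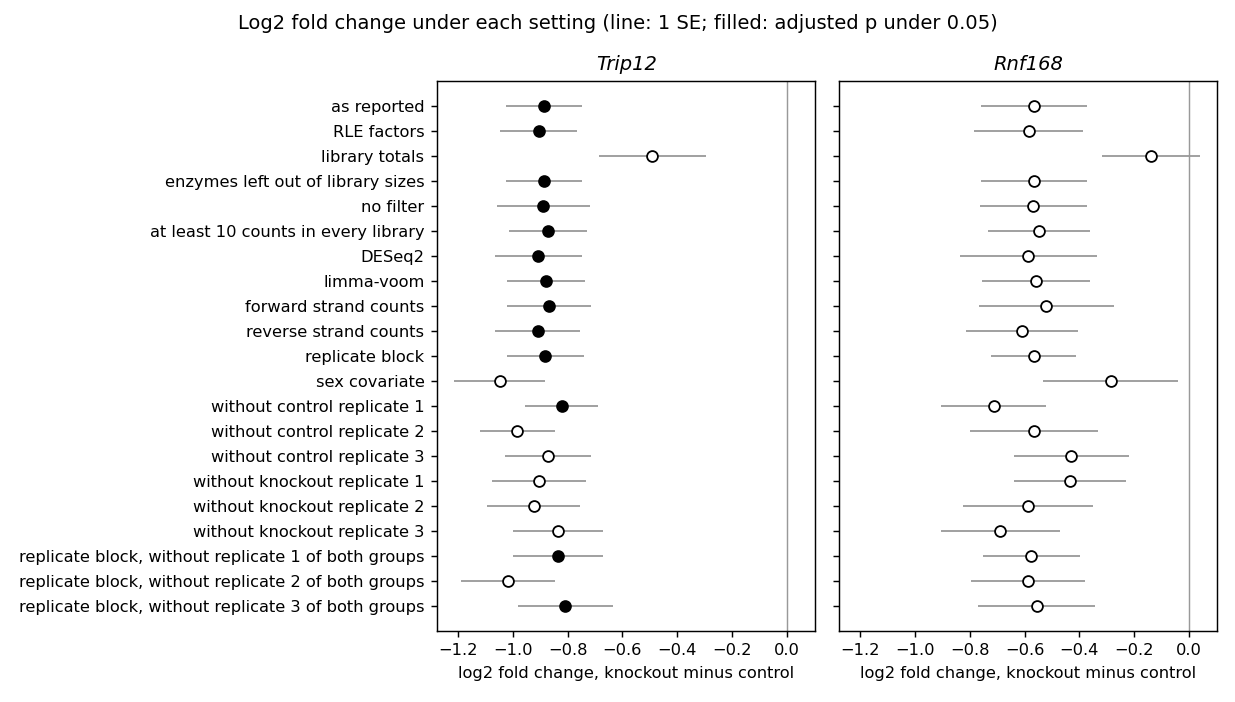
Log2 fold change, knockout minus control (horizontal axes), of Trip12 and Rnf168 in the reported fit and in 20 alternatives (vertical axis), with a line of 1 SE to each side and filled points where the adjusted p is under 0.05. All Trip12 values lie between -1.05 and -0.49 and all Rnf168 values between -0.71 and -0.14.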

How the data were processed

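RNA from 3 control and 3 knockout preparations was sequenced, with 1 library each. The authors deposited raw, whole-number counts per gene for each library. Per the submitters' processing notes, STAR 2.7.10a and the build GRCm39 (mm39) were used; the annotation and counting options are not given in the sources used here. The unstranded counts were used, since 50.1% to 50.3% of stranded gene counts were on the forward strand. Names, exonic lengths and overlaps came from GENCODE M21 (GRCm38), which holds 94.1% of the identifiers. Because the builds differ, coordinates are given only for the promoter windows, in GRCm38.p6.

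Genes passing filterByExpr were tested with edgeR 4.0.16 in R 4.3.3 (TMM, robust quasi-likelihood fit, Benjamini-Hochberg adjustment over 13115 genes, called under 0.05). The standard error was taken as the size of the log2 fold change divided by the square root of F. The log2 CPM values used a prior count of 2. For shares an exact permutation test (two-sided) was used. DESeq2 1.42.0, limma-voom (limma 3.58.1), other scalings, filters, strand columns, a replicate block, a sex covariate and left-out libraries were alternatives. The edgeR fit was also run on simulated counts with known changes and no sex or pair differences. This checks the size of its estimates and not the calls made here.

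Preparations carry the numbers 1 to 3 within each group. Deviations from the group means correlated at 0.630, 0.455 and 0.285 in pairs 1 to 3, and at -0.496 to 0.210 for unlike numbers. Deviations cancel over the 3 libraries of a group, so the like and unlike correlations are not independent of each other. The labels do not say what a shared number means, so the pairing was inferred from these same data. The main fit left it out, and the block and the pair differences rest on it. Pairs 2 and 3 each set a female control against a male knockout. The labels call the preparations biological replicates, with an identifier each, but do not say whether each was 1 animal. The edgeR p-values set the difference between the groups against the spread between these samples.

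The members and lists were chosen with earlier results of these data known. All members were named, with, from each list, genes called with or without the block and the largest rise and fall, and the 5 genes most like Trip12; Nedd4, Uba3 and Cdkn2a were named after their values were seen. A gene that this rule names is not reported here.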

Additional observations from a re-analysis of the deposited data

How the results depend on the processing

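The 20 alternatives of the fit took the count of 124 called genes to 118 with RLE factors, 1519 with library totals (94.9% of them higher, against 49.2%), 850 without a filter, 210 when 10 counts were required in each library, 594 with DESeq2, 785 with the replicate block and 21 with the sex covariate. Leaving out 1 library gave 20 (without control replicate 2) to 461 (without control replicate 1), with 54 without control replicate 3, and 27, 88 and 24 without knockout replicates 1, 2 and 3. With the block and without pair 1, 2 or 3, added after seeing the data, 396, 100 and 832 genes were called. The cause of these shifts was not tested.

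Members called numbered 0 with library totals, with the sex covariate and with the block without pair 2, and 0 to 1 when 1 library was left out, where only the fit without control replicate 1 kept the call. Trip12 was then -0.49, -1.05, -1.02 and -0.98 to -0.82 on the log2 scale. The replicate block changed no member's call.

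Members near 0 changed sign. Parp1 was -0.013 with RLE factors, -0.013 with DESeq2, -0.0061 with limma-voom, -0.010 with reverse-strand counts, -0.0057 with the replicate block, -0.088 with the sex covariate, -0.071 and -0.14 with the block without pairs 2 and 3, and -0.075 to 0.14 with 1 library left out. Usp7 was 0.41 with library totals, 0.015 with at least 10 counts, 0.0015 with limma-voom, 0.091 with reverse-strand counts, 0.00061 with the replicate block, 0.022 and 0.069 with the block without pairs 1 and 3, and -0.065 to 0.060 with 1 library left out. Library totals gave 0.19 for Nae1, 0.20 for Fbxw7 and 0.16 for Sox6. Fbxw7 was 0.14 with the sex covariate, 0.072 with the block without pair 3 and -0.41 to 0.015 with 1 library left out. Asxl1 was -0.035 with forward-strand counts, -0.094 with the sex covariate and -0.029 to 0.21 with 1 library left out, and Bap1 -0.12 with reverse-strand counts.

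Among shares, in percentage points, Parp1 was -1.01 without Macrod1, the most abundant other gene, and -0.558 to 2.47 with 1 library left out. Forward-strand counts gave 0.222 for Nae1, 0.899 for Bap1 and -0.581 for Asxl1, and Bap1 was 0.774 without Ogt. With 1 library left out Nae1 lay between -0.276 and 0.0315, Bap1 between -0.554 and 0.578, and Asxl1 between -0.638 and 0.801. The part of depth (157 to 249 counts per library for Rnf168) in the width of the intervals was not tested.

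Called genes per list also moved. Library totals gave 2 in the HECT list, 3 each in ubiquitin fusion degradation and break signalling, 2 in SWI/SNF, and 1 each in the ADP-ribosylation, NEDD8, Fbxw7 and SOX lists. Without the block, the Usp7 list held 2 with no filter, 1 when 10 counts were required and 2 without control replicate 1. Those without a filter and without control replicate 1 also had 1 each in break signalling and SWI/SNF, with 1 more in the Fbxw7 and the NEDD8 list respectively, and reverse-strand counts gave 1 in SWI/SNF. The Polycomb list had 0 in all 20 alternatives. With the sex covariate no list held a called gene.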
